A study of Mus musculus with 9 samples.

Results

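This report describes the small nucleolar RNAs (snoRNAs), the small Cajal body RNAs (scaRNAs) and the genes, mostly of long non-coding RNAs, named as snoRNA host genes in the gonadotropin-stimulated mouse ovary. The rows were chosen by symbol and by level, the level being measured in these same libraries: those with a symbol of Snord, Snora, Scarna or Snhg followed by a number, or Gas5, and with an RPKM (reads per kilobase of exon, scaled by library) of at least 0.5 in at least 3 of the 9 libraries. Of the 54838 rows of the table, 166 had such a symbol and 59 also passed the RPKM floor. The 59 are 28 C/D box snoRNAs, 15 H/ACA box snoRNAs, 2 scaRNAs and 14 host genes (Gas5 and Snhg1, Snhg5, Snhg6, Snhg8, Snhg9, Snhg10, Snhg11, Snhg12, Snhg14, Snhg15, Snhg17, Snhg18 and Snhg20).

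Total RNA was sequenced from ovaries of adult mice taken 40 h after PMSG, a hormone preparation that makes follicles grow, in 3 libraries for each of 3 genotypes. In DKO LXR TG-AMH-LXRb (called DKO_TG here) the double knockout carries a transgene whose name joins AMH and LXRb. The label DKO LXR (called DKO) names a double knockout of LXR, the liver X receptors, and no transgene. WT is the wild type, and all 3 genotypes received PMSG. The AMH gene is active in granulosa cells of the ovary, and the labels do not say more about the promoter of the transgene. They also do not say that the libraries came from separate animals, so p-values measure only how far these samples spread, which may be technical.

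Most mammalian snoRNAs are cut out of introns of host genes after splicing. C/D box snoRNAs guide the methylation of ribose in ribosomal RNA by fibrillarin, and H/ACA box snoRNAs guide the conversion of uridine to pseudouridine by dyskerin. scaRNAs do the same for spliceosomal RNAs in Cajal bodies. Many hosts encode ribosomal proteins or translation factors, whereas the Snhg genes and Gas5 carry snoRNAs in their introns and leave a spliced RNA that is not translated into a known protein, and that for several of them is a target of nonsense-mediated decay.

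The sequences of the snoRNAs on which the results turn are given first, from the GENCODE M21 transcripts on mm10, 5′ to 3′. Capitals mark a C box core (TGATG) that starts within the first 20 bases and a D box (CTGA) that ends within the last 20. Snord123 lies in an intron of Snhg18 (chr15:32241853-32241923, minus strand), Snord72 in one of Rpl37 (chr15:5118404-5118484, plus strand) and Snord37 in one of Eef2 (chr10:81178950-81179013, plus strand), and all 3 were almost or wholly without reads in WT.
Snord123: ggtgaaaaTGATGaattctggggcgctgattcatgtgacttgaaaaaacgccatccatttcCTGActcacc
Snord72: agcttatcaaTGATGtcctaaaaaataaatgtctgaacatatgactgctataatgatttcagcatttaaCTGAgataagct
Snord37: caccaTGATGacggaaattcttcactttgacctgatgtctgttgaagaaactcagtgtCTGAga
Introns of Rpl13a hold Snord32a (chr7:45127382-45127464), Snord34 (chr7:45126601-45126670) and Snord35a (chr7:45126346-45126435), all on the minus strand, which makes them a set from 1 host transcript.
Snord32a: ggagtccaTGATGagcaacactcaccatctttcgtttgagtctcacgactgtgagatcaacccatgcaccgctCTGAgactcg
Snord34: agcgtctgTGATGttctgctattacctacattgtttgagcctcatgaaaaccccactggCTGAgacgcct
Snord35a: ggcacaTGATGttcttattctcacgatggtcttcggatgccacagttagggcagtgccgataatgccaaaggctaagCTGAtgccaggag
Snord49b (chr11:62603079-62603150), Snord49a (chr11:62603450-62603521) and Snord65 (chr11:62604515-62604586), all on the plus strand, form another such set in the non-coding gene 2410006H16Rik, and their changes were unequal.
Snord49b: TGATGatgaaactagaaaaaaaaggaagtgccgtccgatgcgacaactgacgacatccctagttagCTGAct
Snord49a: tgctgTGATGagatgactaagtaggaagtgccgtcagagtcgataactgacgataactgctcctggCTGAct
Snord65: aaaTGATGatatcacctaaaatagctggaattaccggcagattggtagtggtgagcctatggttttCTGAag
Snora31 (chr14:75847905-75848034, plus strand, in Tpt1) and Snora41 (chr1:63179004-63179135, plus strand, in Eef1b2) are shown as the H/ACA snoRNAs with the largest change and with the smallest standard error, with the ACA near the 3′ end in capitals.
Snora31: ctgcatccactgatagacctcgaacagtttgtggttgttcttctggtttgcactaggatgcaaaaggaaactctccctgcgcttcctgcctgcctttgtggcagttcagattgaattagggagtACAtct
Snora41: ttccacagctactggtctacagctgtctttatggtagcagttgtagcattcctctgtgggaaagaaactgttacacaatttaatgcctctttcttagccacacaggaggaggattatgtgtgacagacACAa

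The C/D rows that passed the floor were 64 to 110 bases long (median 76.5) and the H/ACA rows 128 to 184 bases (median 137). A C box and a D box in these windows were both present in 25 of 28 C/D rows and in 0 of 15 H/ACA rows, and an ACA that ends within the last 6 bases was present in 15 of 15 H/ACA rows. Searched in the same way on the given strand, 76-base windows of RefSeq promoters held both boxes in 72 of 32846 cases (0.219%). Of the 45 small RNA rows, 8 share a run of 50 identical bases with another annotated small RNA gene (Snord58b, Snora21, Snora30, Snora34, Snora41, Snora43, Snora57 and Scarna17), so their reads could be split with that copy.

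The libraries held between 40.1 and 59.4 M reads recovered from the deposited values. Both liver X receptor genes were lower in the knockout groups: Nr1h2 averaged 5.67 ± 0.46 RPKM in DKO_TG, 6.53 ± 1.09 in DKO and 18.8 ± 3.64 in WT, and Nr1h3 averaged 0.670 ± 0.145, 0.807 ± 0.273 and 4.68 ± 0.70 RPKM in the same order (SD, n = 3 each). In the limma fit Nr1h2 did not differ between DKO_TG and DKO (log2 change -0.18 ± 0.16 SE, adjusted p = 0.621). Both knockout groups stood apart from WT across the whole table. Of 18889 rows tested, 56.7% were called in DKO against WT and 51.4% in DKO_TG against WT, but 2.23% in DKO_TG against DKO (limma, Benjamini-Hochberg adjusted p under 0.05). RNAs kept in the nucleus moved with the small RNAs: Malat1, a nuclear speckle RNA, had 246, 258 and 279 RPKM in DKO_TG and 213, 206 and 177 RPKM in DKO, against 1.67, 9.36 and 11.1 RPKM in WT. Neat1, the scaffold of paraspeckles, had 49.3, 67.2 and 58.6 RPKM in DKO_TG and 65.7, 59.0 and 41.2 RPKM in DKO, against 0.226, 0.757 and 0.749 RPKM in WT. In DKO against WT, 4 of 6 tested nuclear-retained RNAs were higher and 0 lower. The part of such a difference between the libraries in the results below was not tested, and genotype and any difference in how the WT samples were handled cannot be told apart.

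The choice of rows used these same values, and it bears on every count and sum against WT. All 59 rows reached the floor on the DKO_TG and DKO libraries alone, and 13 would have reached it on the WT libraries alone. No WT library reached the floor for 35 rows (30 small RNAs and 5 host genes), and 18 rows were listed at 0 in all 3 WT libraries. Rows of this kind had to be higher in the knockout groups to be in the set, so the counts and sums that follow describe the set and carry no support beyond it. Just inside the floor lay Snhg9, Snora43 and Snhg14, where the value that decides (the highest but 2 of the 9) was 0.623, 0.578 and 0.551 RPKM. Just outside lay Scarna13, Snord17 and Snora74a, where it was 0.426, 0.422 and 0.399 RPKM. Snord17 had 0.258, 0 and 0.422 RPKM in DKO_TG and 0.0821, 0.137 and 0.128 RPKM in DKO, against 0.183, 0.751 and 0.783 RPKM in WT, and none of these outside rows was tested.

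Summed over the 28 C/D rows, the level was 144, 156 and 152 RPKM in DKO_TG and 112, 136 and 134 RPKM in DKO, against 15.0, 15.7 and 14.9 RPKM in WT. The 15 H/ACA rows summed to 39.8, 38.0 and 40.8 RPKM in DKO_TG and 38.4, 50.9 and 44.4 RPKM in DKO, against 6.11, 2.64 and 1.201 RPKM in WT. No knockout library overlapped a WT library in either sum, which the choice of rows by level in these same libraries favours. The reads behind the small RNA values were few: all 45 small RNAs together held 721 to 892 reads in each DKO_TG library, 726 to 1101 in each DKO one and 63 to 94 in each WT one. Each WT library listed 25 to 27 of the 45 at 0, against 0 to 3 in each knockout library. The 14 host genes held 14741 to 19042 reads in each DKO_TG library, 20583 to 34309 in each DKO one and 6464 to 7320 in each WT one, so their levels are far better determined. In a bulk sample, fewer cells of a type and less RNA per cell cannot be told apart. Reads that fall in a snoRNA also include those from its unspliced host transcript, which these values do not separate.

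**Figure D1:**
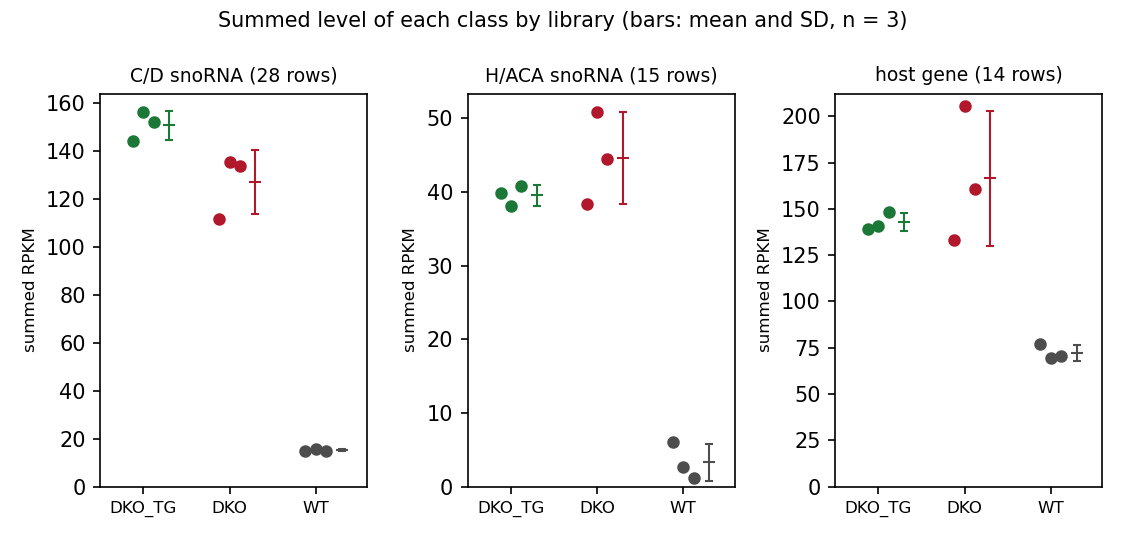
Summed RPKM of the C/D snoRNAs (28 rows), H/ACA snoRNAs (15 rows) and host genes (14 rows) in each of the 9 libraries, by genotype (points, libraries; bars, mean and SD, n = 3). The C/D sums lie at 144 to 156 RPKM in DKO_TG, 112 to 136 RPKM in DKO and 14.9 to 15.7 RPKM in WT, and the host gene sum is highest in DKO replicate 2 (205 RPKM).

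In DKO against WT, 45 of the 59 rows were called higher and 0 lower, where 30.8% of all rows tested were called higher and 25.9% lower (limma, adjusted over 18889 rows). The calls comprised 24 of 28 C/D snoRNAs, 9 of 15 H/ACA snoRNAs, 0 of 2 scaRNAs and 12 of 14 host genes. The median log2 change was 1.73 over the 59 rows and 0.02 over all rows tested, and 1.92 with the 18 rows at 0 in WT set to the lower bound that 3 reads in the WT group allow. Of the 24 rows for which at least 1 WT library reached the floor, 15 were called higher. The groups did not overlap for 46 of the 59 rows, beside 61.2% of all rows. Another 94 tested genes are annotated as snoRNA or scaRNA under other symbols, and 76 of them were called higher and 0 lower. They passed the same floor, so the same limit applies to them.

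Some markers of ovarian cell types also differed between these groups, as did much of the whole table. In DKO against WT, 4 of 6 macrophage markers, 3 of 4 theca markers and 2 of 4 oocyte markers were called higher and 0 lower, while 3 of 4 endothelial, 2 of 4 luteal and 1 of 6 granulosa markers were called lower and 0 higher. Of the erythrocyte markers, 0 of 5 were called. Beside these counts, 30.8% of all rows tested were called higher and 25.9% lower. The summed level of the macrophage markers was 226 to 417 RPKM in DKO and 158 to 206 RPKM in WT, and that of the oocyte markers 19.3 to 45.2 RPKM in DKO and 9.84 to 22.2 RPKM in WT. The theca sum, most of it Cyp17a1, was 67.6 to 213 RPKM in DKO and 169 to 960 RPKM in WT. The endothelial sum was 41.1 to 64.6 RPKM in DKO and 69.8 to 76.7 RPKM in WT, and the luteal sum 1127 to 2148 RPKM in DKO and 3216 to 4743 RPKM in WT. Granulosa markers summed to 1000 to 1998 RPKM in DKO and 1651 to 2245 RPKM in WT. The one marker of these lists at 0 in any library was Insl3, of the theca, in 2 WT libraries. The part of these cells in the snoRNA and host gene differences was not tested.

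**Figure D2:**
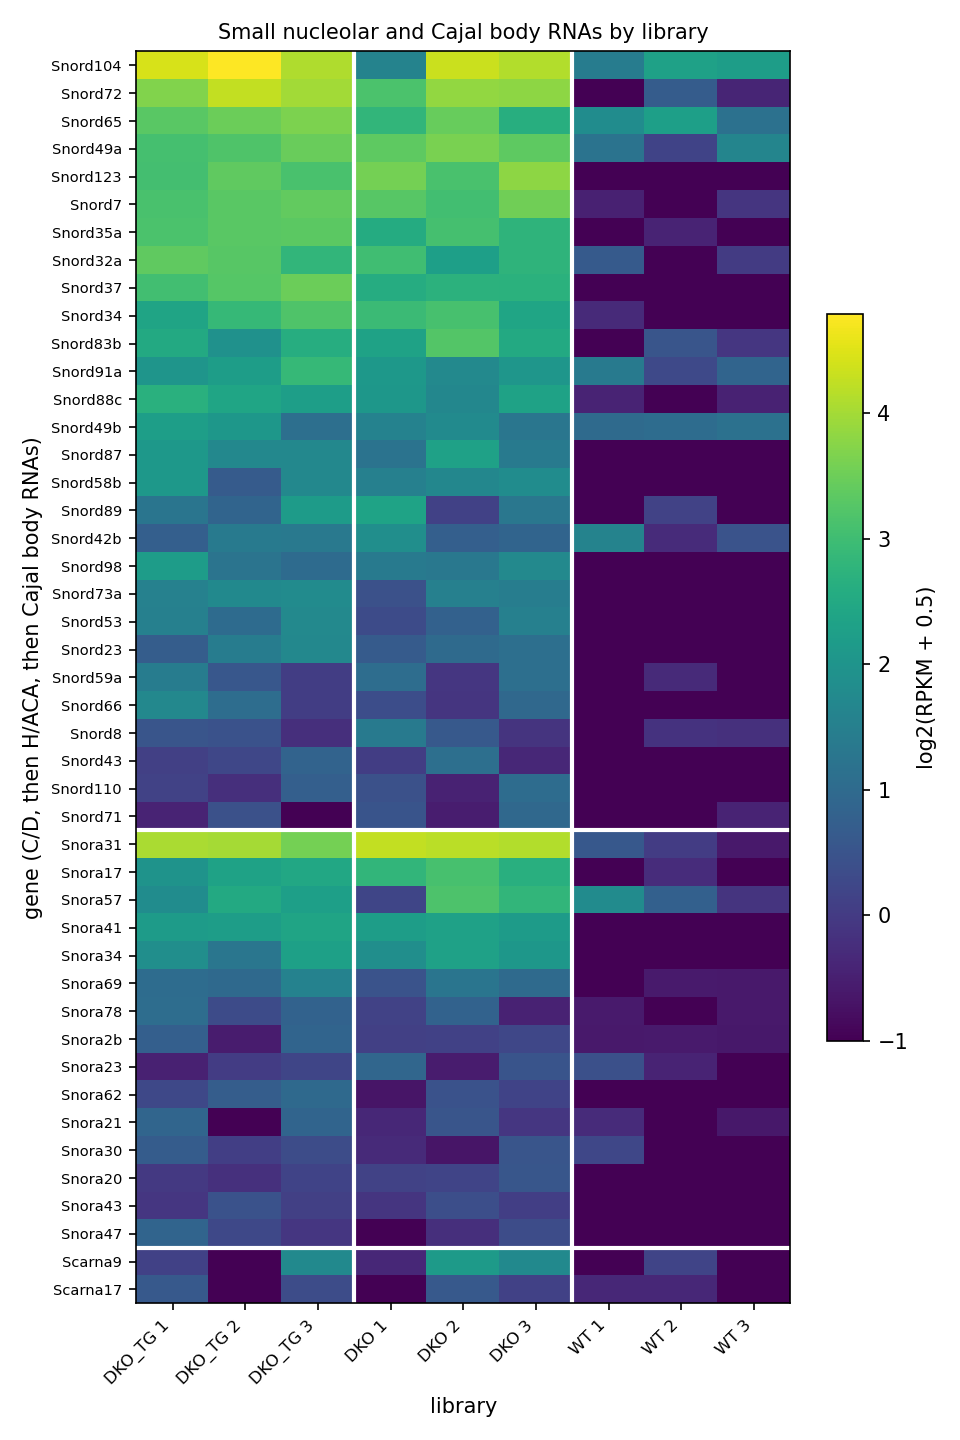
Level of the 45 small RNAs, log2(RPKM + 0.5) by colour, in the 9 libraries (columns, DKO_TG, DKO, WT) with C/D snoRNAs above, then H/ACA snoRNAs and scaRNAs, each ordered by mean level. Rows are dark in the 3 WT columns, most at the lowest colour, which stands for an RPKM of 0, and Snord49b, Snord42b and Snord65 are among those that keep a visible level in WT.

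Among the C/D snoRNAs, Snord104 had the highest mean level, 12.8 RPKM over the 9 libraries. It had 21.1, 27.2 and 16.6 RPKM in DKO_TG and 2.51, 19.5 and 17.0 RPKM in DKO, against 2.18, 4.47 and 4.14 RPKM in WT. DKO replicate 1 fell within the WT range while the other DKO libraries did not, and the difference between DKO and WT was not called (log2 change 1.37 ± 0.64, adjusted p = 0.0972). Next in level came Snord72 (9.31 RPKM), Snord65 (7.09), Snord49a (7.07), Snord123 (6.58), Snord7 (6.29) and Snord35a (5.26). The neighbours Snord65 and Snord49a overlapped in every group. These levels rest on few reads, for Snord104 on 209 over the 3 DKO_TG libraries, 171 in DKO and 35 in WT.

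Snord123 had 7.79, 9.84 and 8.20 RPKM in DKO_TG and 11.6, 8.25 and 13.6 RPKM in DKO, and was listed at 0 in all 3 WT libraries. That is 141 reads in DKO and 0 in WT, at least 36.6-fold higher in DKO by a floor of 3 reads over the WT group, with a fitted log2 change of 4.51 ± 0.17 (adjusted p = 2.9e-07). Snord72 had 12.4, 18.7 and 15.4 RPKM in DKO_TG and 8.44, 13.9 and 13.6 RPKM in DKO, against 0, 1.10 and 0.256 RPKM in WT. All knockout libraries lay above all WT libraries, which the choice of rows by level favours. The log2 change of Snord72 in DKO was 3.85 ± 0.39 (adjusted p = 8.1e-05). Snord7, in the non-coding gene AA465934, had 8.24, 9.44 and 10.1 RPKM in DKO_TG and 9.27, 7.72 and 11.2 RPKM in DKO, against 0.225, 0 and 0.427 RPKM in WT. Its 163 reads in DKO stood against 3 in WT, a ratio of 42.4 with a 95% counting interval of 14.2 to 208 that covers counting error only. Snord37 had 7.69, 9.04 and 10.7 RPKM in DKO_TG and 5.50, 6.11 and 5.97 RPKM in DKO, and was listed at 0 in WT, so that DKO was at least 17.4-fold higher. The 4 C/D snoRNAs not called in DKO against WT were Snord104, Snord71, Snord42b and Snord49b. Snord42b, which partly lies in an exon of another gene, had 3.11, 1.18 and 1.33 RPKM in DKO, against 2.53, 0.324 and 0.900 RPKM in WT, and these groups overlap.

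Among the H/ACA snoRNAs, Snora31 was the most abundant, with a mean of 10.9 RPKM. It had 16.2, 15.6 and 11.4 RPKM in DKO_TG and 18.8, 17.7 and 16.8 RPKM in DKO, against 1.01, 0.516 and 0.159 RPKM in WT. Its 409 reads in DKO against 10 in WT make it the best counted small RNA of the set, and the log2 change was 4.18 ± 0.27 (adjusted p = 5.6e-06). Snora41 had 4.04, 4.20 and 4.71 RPKM in DKO_TG and 4.14, 4.44 and 4.05 RPKM in DKO, and was listed at 0 in WT, so that DKO was at least 25.7-fold higher. Snora57 had 3.05, 5.21 and 4.34 RPKM in DKO_TG and 0.660, 8.47 and 6.51 RPKM in DKO, against 2.95, 1.21 and 0.420 RPKM in WT, and DKO replicate 1 again fell within the WT range (log2 change 1.25 ± 0.75, adjusted p = 0.177). Not called, besides Snora57, were Snora2b, Snora21, Snora23, Snora30 and Snora47, all at a mean under 0.7 RPKM.

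Of the scaRNAs, Scarna9 had 0.586, 0 and 2.87 RPKM in DKO_TG and 0.279, 3.95 and 2.84 RPKM in DKO, against 0, 0.639 and 0 RPKM in WT. Scarna17 had 1.04, 0 and 0.762 RPKM in DKO_TG and 0, 1.03 and 0.581 RPKM in DKO, against 0.276, 0.283 and 0 RPKM in WT. The groups overlap in both cases, and neither was called in any comparison. Scarna9 had 12 reads in DKO_TG, 31 in DKO and 2 in WT. Its log2 change in DKO against WT was 1.78 ± 0.80 (adjusted p = 0.0860), and without DKO replicate 1, its lowest DKO library, it was 2.55 and called (adjusted p = 0.0202). Scarna17 had 7 reads in DKO_TG, 8 in DKO and 2 in WT.

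Most host genes were measured on far more reads than the snoRNAs. In DKO against WT, 12 of 14 were called higher, beside 30.8% of all rows tested. No WT library reached the floor for 5 of the 14 (Snhg9, Snhg11, Snhg14, Snhg17 and Snhg20). These 5 had to be higher in the knockout groups to be in the set, and all 5 were called. Snhg11 is known as a non-coding RNA abundant in neurons, though GENCODE M21 annotates it as protein-coding. It had 6.47, 5.54 and 6.08 RPKM in DKO_TG and 8.64, 8.37 and 6.78 RPKM in DKO, against 0.0205, 0.0525 and 0.0364 RPKM in WT. Its log2 change of 3.97 ± 0.11 (adjusted p = 7.5e-08) was the largest among the host genes, from 11928 reads in DKO and 43 in WT. Snhg17 lies 14.1 kb from Snhg11 on chromosome 2, on the opposite strand, and had 6.66, 5.86 and 6.59 RPKM in DKO_TG and 5.93, 5.93 and 7.31 RPKM in DKO, against 0.211, 0.307 and 0.352 RPKM in WT (log2 change 3.12 ± 0.11, adjusted p = 2.9e-07). Snhg20 had 8.72, 7.67 and 5.29 RPKM in DKO, against 0.445, 0.336 and 0.237 RPKM in WT (log2 change 3.18 ± 0.18).

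Snhg1, the host of several C/D snoRNAs, also had a clear level in WT, with 17.9, 17.3 and 18.9 RPKM in DKO_TG and 12.4, 21.7 and 18.1 RPKM in DKO, against 3.62, 3.72 and 3.68 RPKM in WT. Snhg5, Snhg6, Snhg12 and Snhg15 were also called higher, with log2 changes of 1.92, 1.73, 2.20 and 2.19 in DKO and no overlap between DKO and WT. Snhg14, the long transcript that hosts the imprinted Snord115 and Snord116 clusters and that in neurons runs antisense to Ube3a, averaged 0.547 ± 0.019 RPKM in DKO_TG and 0.491 ± 0.080 RPKM in DKO, against 0.0118 ± 0.0039 RPKM in WT (SD, n = 3 each). Snhg9 was listed at 0 in WT and had 0.534, 0.623 and 0.167 RPKM in DKO from 14 reads, at least 3.74-fold higher. Its call (adjusted p = 0.0313) was lost without DKO replicate 1 or 2 or without any one WT library (adjusted p 0.0686 to 0.0883).

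Gas5, Snhg8 and Snhg18 were the most abundant host genes, with clear levels in every group. Snhg8 had 20.1, 24.7 and 22.1 RPKM in DKO_TG and 11.0, 26.1 and 20.7 RPKM in DKO, against 22.5, 17.6 and 18.9 RPKM in WT. These ranges overlap, and the log2 change in DKO was -0.10 with a 95% interval of -0.71 to 0.50. Snhg18 had 17.0, 18.7 and 18.7 RPKM in DKO_TG and 20.3, 26.5 and 21.7 RPKM in DKO, against 15.7, 18.7 and 17.9 RPKM in WT. It was called higher in DKO by a log2 change of 0.37 ± 0.12 (adjusted p = 0.0225), a call lost without DKO replicate 2 (adjusted p = 0.0532) and without WT replicate 1 (adjusted p = 0.0683). Gas5, a growth-arrest transcript whose RNA can bind the glucocorticoid receptor, had 32.6, 52.5 and 37.9 RPKM in DKO, against 23.1, 19.2 and 19.3 RPKM in WT, with no overlap (log2 change 0.95 ± 0.16, adjusted p = 0.0014). Snhg10 had 0.997, 2.37 and 1.99 RPKM in DKO, against 1.49, 0.803 and 0.704 RPKM in WT, and was not called (log2 change 0.59 ± 0.28, adjusted p = 0.0976). It was called without DKO replicate 1 (log2 change 0.87, adjusted p = 0.0188), without WT replicate 1 (0.82, adjusted p = 0.0451), with TPM scaling (0.98, adjusted p = 0.00512) and with the plain total of reads (0.81, adjusted p = 0.0238).

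**Figure D3:**
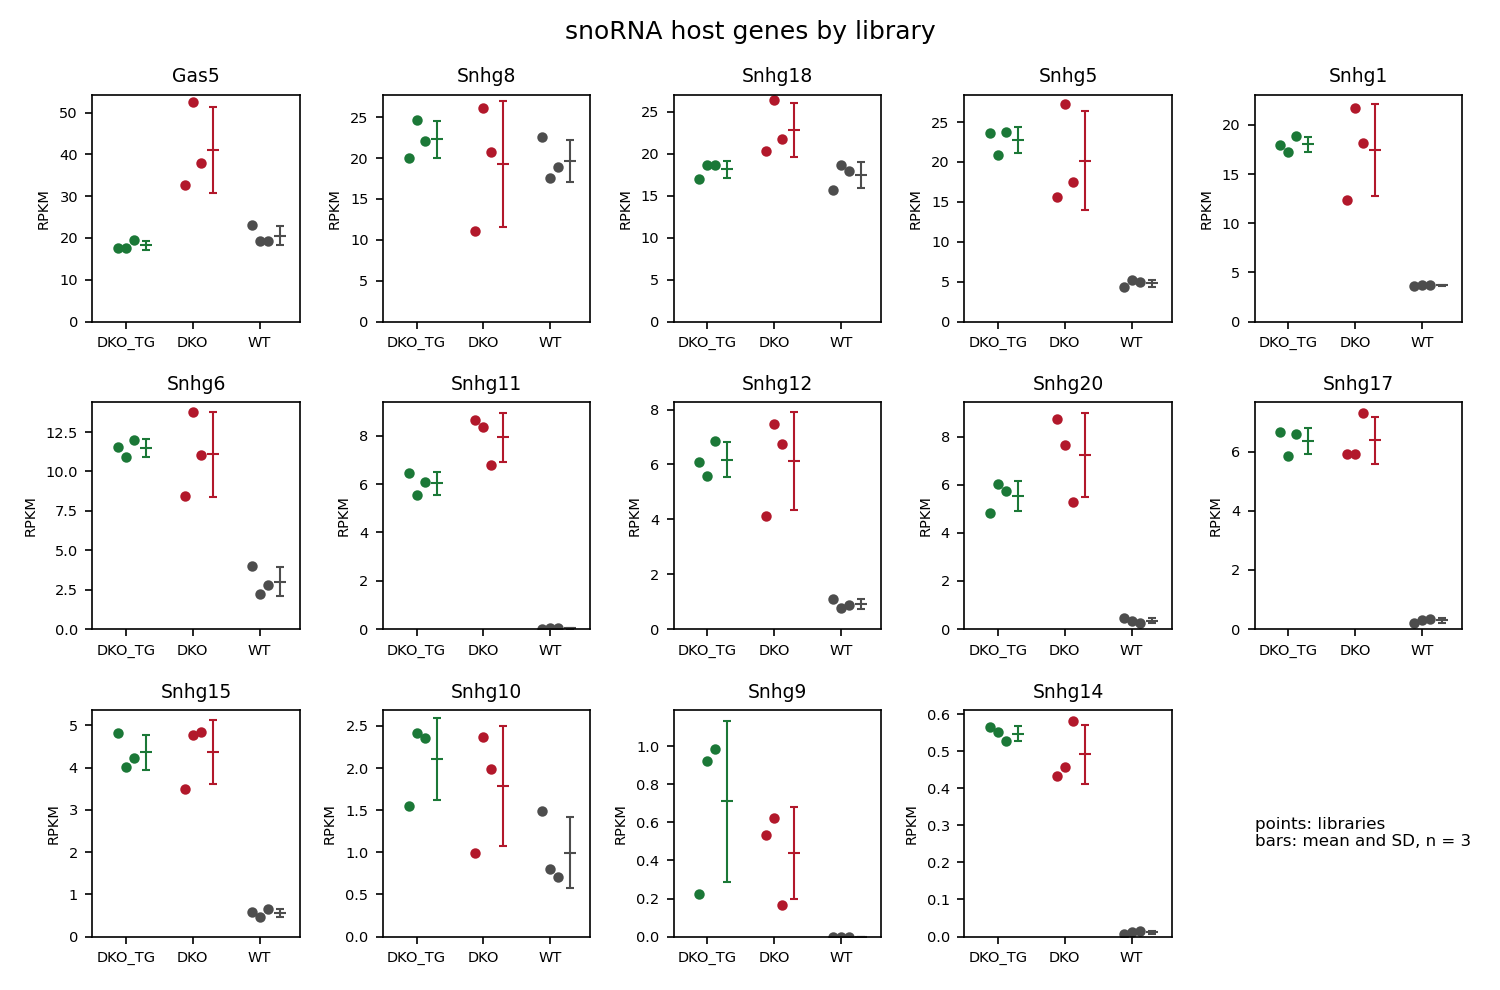
RPKM of the 14 host genes in each library, in a panel per gene with its own axis from 0, ordered by mean level (points, libraries; bars, mean and SD, n = 3). Gas5 stands out by its high DKO libraries (32.6 to 52.5 RPKM) with DKO_TG and WT between 17.6 and 23.1 RPKM, while most other panels have both knockout groups above WT.

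Each small RNA could be set beside the gene on the same strand whose body contains it. Of the 45 small RNAs, 40 lay in such a host and 39 had a host that was tested, 33 hosts in all. On the deposited scale, calls among the protein-coding hosts mostly ran the other way from those of the snoRNAs. In DKO against WT, 3 of 27 tested protein-coding hosts were called higher and 15 lower, with a median log2 change of -0.55. Of all 13215 tested protein-coding genes, 4194 were called higher and 2971 lower, with a median of 0.06. The 9 ribosomal protein hosts had a median of -0.75, with 0 called higher and 7 lower. In all 31 pairs with a protein-coding host the log2 change of the small RNA lay above that of its host, and in 6 of 8 pairs with a non-coding host. The choice of rows favours this order, since no WT library reached the floor for 30 of the 45 small RNAs. Those 30 had to be higher in the knockout groups to be paired at all. The level of these hosts relative to WT depends on the scaling of the libraries. With TPM scaling, which raises the median of all rows in DKO against WT by 0.49, 9 protein-coding hosts were called higher and 2 lower, and 0 ribosomal protein hosts in either direction. Of all rows tested, 58.7% were called under that scaling, both directions together. Relative to the median of all rows, the ribosomal protein hosts then stood at -0.68, and with quantile normalization at 0.03.

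**Figure D4:**
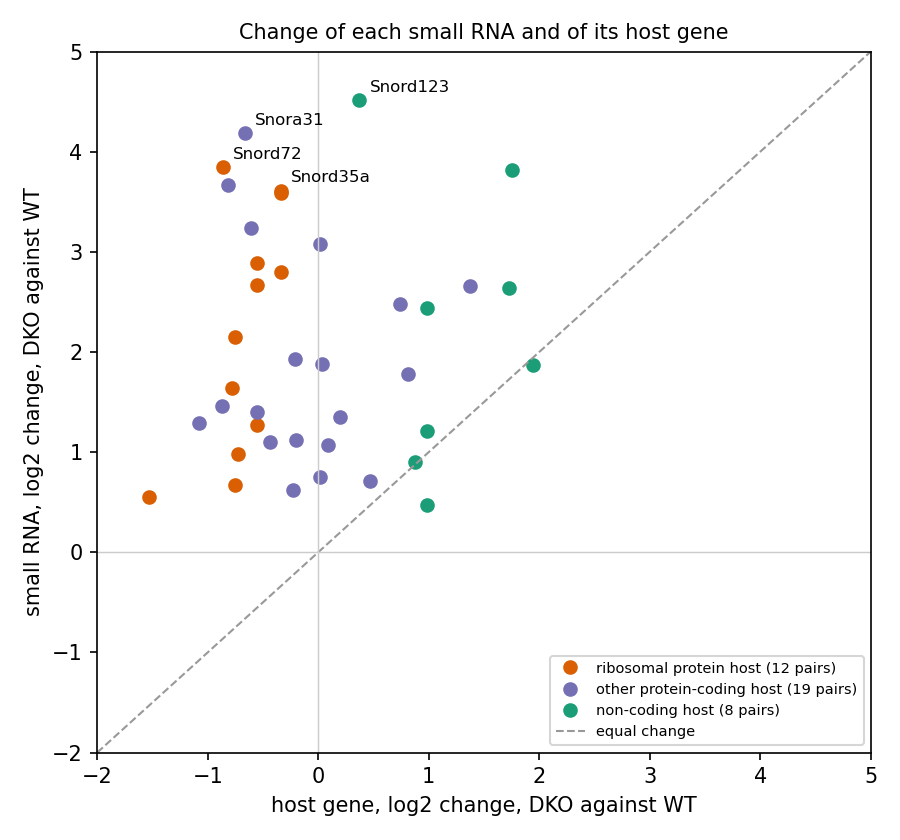
Log2 change in DKO against WT of each of 39 small RNAs (vertical) and of its host gene (horizontal), on the log2(RPKM + 0.5) scale, coloured by kind of host, with the line of equal change dashed. All points with a protein-coding host lie above the line, and Snord123 lies at 4.51 with its non-coding host Snhg18 at 0.37. The small RNAs all passed the floor on the knockout libraries alone, which favours points above the line.

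Single hosts of snoRNAs picked for their large changes give examples of this gap, and not its usual size. Over the pairs with a protein-coding host, the median log2 change was 1.78 for the small RNA and -0.55 for the host. No WT library reached the floor for Snord123 and Snord37, which had to be higher in the knockout groups to be in the set. Snhg18, which carries Snord123, averaged 22.8 ± 3.23 RPKM in DKO and 17.5 ± 1.56 RPKM in WT (SD, n = 3 each), while its snoRNA had 141 reads in DKO and 0 in WT. Tpt1, the host of Snora31 and the gene of translationally controlled tumour protein, averaged 582 ± 95.4 RPKM in DKO and 923 ± 142 RPKM in WT (log2 change -0.67 ± 0.17, adjusted p = 0.0106). Eef2, the elongation factor gene that hosts Snord37, had a log2 change of -0.82 ± 0.15 (adjusted p = 0.00195), and Rpl37, the host of Snord72, had -0.86 ± 0.26 (adjusted p = 0.0215). The snoRNAs of all 3 were called higher. The changes of these hosts stayed below 0 with TPM scaling but were not called there: -0.11 for Tpt1 (adjusted p = 0.221), -0.27 for Eef2 (adjusted p = 0.0508) and -0.31 for Rpl37 (adjusted p = 0.136). With the plain total of reads, Tpt1 (-0.35, adjusted p = 0.0378) and Eef2 (-0.50, adjusted p = 0.0039) stayed called lower and Rpl37 did not (-0.55, adjusted p = 0.0639). With quantile normalization none of the 3 was called.

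Snord32a, Snord34 and Snord35a, from the introns of Rpl13a shown above, belong to a set known from rodent cells to take part in the response to lipid-induced stress. Snord32a had 9.88, 9.29 and 6.53 RPKM in DKO_TG and 7.53, 4.32 and 6.26 RPKM in DKO, against 1.05, 0 and 0.499 RPKM in WT. Snord34 had 4.68, 6.89 and 8.60 RPKM in DKO_TG and 7.26, 8.14 and 4.80 RPKM in DKO, against 0.312, 0 and 0 RPKM in WT. Snord35a had 8.43, 9.37 and 9.59 RPKM in DKO_TG and 5.43, 7.96 and 6.29 RPKM in DKO, against 0, 0.248 and 0 RPKM in WT. The log2 changes in DKO were 2.80, 3.59 and 3.61 in that order of genes, with no overlap between DKO and WT. The choice of rows favours this, since no WT library reached the floor for Snord34 and Snord35a, and 1 did for Snord32a. Of all rows tested, 61.2% had no overlap either. Rpl13a itself averaged 25.2 ± 4.52 RPKM in DKO and 31.8 ± 3.88 RPKM in WT and was not called (adjusted p = 0.0682). Snord33, the other snoRNA of this host, was listed at 0 in every library, and it lies wholly inside an annotated Rpl13a exon.

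The snoRNAs of 2410006H16Rik, sequences of equal length (72 bases), changed unequally. Snord49a had 9.77, 11.8 and 9.77 RPKM in DKO, against 1.82, 0.621 and 2.59 RPKM in WT (log2 change 2.44 ± 0.32). Snord65 had 6.51, 10.4 and 5.73 RPKM in DKO, against 3.03, 4.35 and 1.72 RPKM in WT (log2 change 1.22 ± 0.29, adjusted p = 0.0072). Snord49b had 2.44, 2.94 and 1.91 RPKM in DKO, against 1.52, 1.55 and 1.72 RPKM in WT, and was not called (log2 change 0.47 ± 0.27, adjusted p = 0.162). The differences between these snoRNAs were not tested. Their host averaged 101 ± 20.9 RPKM in DKO and 50.6 ± 8.68 RPKM in WT (log2 change 0.98 ± 0.18, adjusted p = 0.0021). On the fitted scale, which understates the change of low rows, Snora34 and Snora2b in the Kansl2 host had log2 changes of 3.08 and 0.76. Snora2b had 15 reads in DKO and 3 in WT, a ratio of 3.90 with a 95% counting interval of 1.10 to 21.0. Snora34 had 93 and 0 reads, with a lower limit of 19.3, so these intervals meet. Both lie partly in an exon of another gene, and their difference was not tested either.

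Many well-known snoRNAs could not be seen in these values. Of 150 rows with a small RNA symbol, 86 were listed at 0 in all 9 libraries, among them Snord47, Snord78 and Snord80 of Gas5, and Snord2 of Eif4a2. Of the 86, 56 lie wholly inside an annotated exon of another gene on the same strand, 7 lie partly inside one, and 23 share none. Of the 45 that passed the floor, 0 lie wholly inside such an exon, 5 partly (Snora2b, Snora34, Snora43, Snord42b and Snord66), and 40 share none. Reads that fall in exons of more than 1 gene are assigned to none of them by several counting modes, and the mode used here is not given in the sources used here. Whether this bears on the rows listed at 0 was not tested, and 20 of the 86 share no exon on either strand. Most of these 20 are copies of 1 cluster in Snhg14, the rows Snord116l1 to Snord116l17. The others are Snora35, Snord82 and Snord90. Snord118 (U8) and Snord13, which have their own promoters, had means of 0.0431 and 0.0711 RPKM and share no exon.

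**Figure D5:**
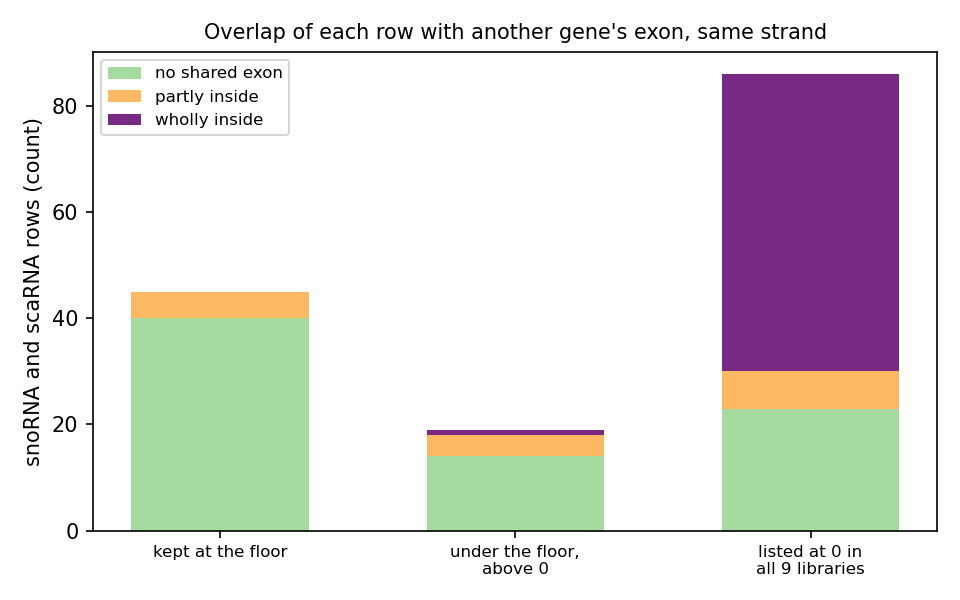
Number of snoRNA and scaRNA rows that passed the floor (45), lay under it but above 0 (19) or were listed at 0 in all libraries (86), stacked by their overlap with an annotated exon of another gene on the same strand. Rows wholly inside another exon number 0 of 45, 1 of 19 and 56 of 86.

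Genes that make and use snoRNAs had smaller changes on the deposited scale. The counts for DKO against WT below stand beside 30.8% of all rows tested called higher and 25.9% called lower. Of the 4 core proteins of C/D particles, 0 were called higher in DKO against WT and 3 lower: fibrillarin (Fbl, log2 change -0.98 ± 0.25, adjusted p = 0.0099), Snu13 (-0.48 ± 0.15) and Nop58 (-0.35 ± 0.11). Of the 4 of H/ACA particles, 0 were called higher and 3 lower, namely Nhp2 (-0.88 ± 0.22, adjusted p = 0.0082), Nop10 (-0.61 ± 0.20) and dyskerin (Dkc1, -0.39 ± 0.10). With TPM scaling none of these 6 genes was called lower: Fbl stood at -0.44 (adjusted p = 0.0567), Nhp2 at -0.33 and Nop10 at -0.063, while Snu13, Nop58 and Dkc1 stood at 0.062, 0.17 and 0.14. With the plain total of reads, Fbl (-0.67, adjusted p = 0.0278) and Nhp2 (-0.57, adjusted p = 0.025) stayed called lower and the others did not. With quantile normalization, Fbl (-0.70, adjusted p = 0.0305), Nop58 (-0.39, adjusted p = 0.0175) and Dkc1 (-0.31, adjusted p = 0.0271) stayed called lower and the others did not. The medians of both lists turn to above 0 with TPM scaling, at 0.12 and 0.03, beside 0.49 for all rows. Relative to all rows, the medians were -0.43 and -0.52 as deposited and -0.37 and -0.45 with TPM scaling. Of 14 tested assembly and trafficking factors 2 were higher and 7 lower, and of 13 factors of snoRNA release and trimming 2 were higher and 2 lower, with Exosc9, an exosome subunit, at -1.02 ± 0.09. Of 30 genes of ribosomal RNA synthesis and processing 3 were higher and 14 lower, with nucleolin (Ncl) at -0.91 ± 0.13. The balance of these calls also turns with TPM scaling, to 6 higher and 1 lower for assembly, 9 and 1 for release and trimming, and 11 and 1 for ribosomal RNA. Under that scaling 58.7% of all rows tested were called, both directions together. Of 10 genes of nonsense-mediated decay 7 were higher and 1 lower: the kinase gene Smg1 had 7.70, 7.24 and 7.22 RPKM in DKO_TG and 7.25, 5.57 and 7.65 RPKM in DKO, against 1.92, 2.70 and 2.89 RPKM in WT. Upf1, the helicase of that pathway, was the gene called lower (-0.27 ± 0.09, adjusted p = 0.0274), and its change turns to 0.26 with TPM scaling (adjusted p = 0.195).

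Other short structured RNAs did not all move with the snoRNAs. The transcription regulator RNA Rn7sk had 20.6, 25.3 and 48.1 RPKM in DKO_TG and 15.3, 27.4 and 17.2 RPKM in DKO, against 41.9, 49.0 and 40.1 RPKM in WT, and was called lower in DKO (log2 change -1.15 ± 0.31, adjusted p = 0.0126), a call lost with TPM scaling (-0.61, adjusted p = 0.0949). That call was also lost with quantile normalization (-0.83, adjusted p = 0.0595) and kept with the plain total of reads (-0.84, adjusted p = 0.0415). Rnu2-10, a U2 spliceosomal RNA gene, was also called lower, at a mean of 0.173 ± 0.077 RPKM in DKO and 1.36 ± 0.37 RPKM in WT (log2 change -1.46 ± 0.20). Rnu73b (U73B), though listed with these RNAs, is itself a C/D snoRNA under a symbol that the rule does not match. It had 6.05, 7.34 and 6.24 RPKM in DKO, against 0, 0.315 and 0.583 RPKM in WT (log2 change 3.21 ± 0.26). In all, 1 of 5 tested was higher and 3 lower, and the 1 called higher was this snoRNA.

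The transgene-labelled libraries differed little from DKO in these rows. In DKO_TG against DKO, 1 of 59 was called higher and 1 lower, where 0.498% of all rows tested were called higher and 1.73% lower. The median log2 change was 0.08 over the 59 rows and 0.03 over all rows, and 7 rows had an unadjusted p under 0.05. The groups did not overlap for 8 of 59 rows, beside 24.2% of all rows.

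The row called lower was Gas5, which had 17.6, 17.7 and 19.4 RPKM in DKO_TG, against 32.6, 52.5 and 37.9 RPKM in DKO. All 3 DKO_TG libraries lay below all 3 DKO libraries, and the log2 change was -1.12 ± 0.16 with a 95% interval of -1.49 to -0.75 (adjusted p = 0.0176). The call was lost without any one DKO_TG library (adjusted p 0.0698 to 0.0778), and when only the 6 libraries compared were fitted (adjusted p = 0.0607), while the log2 change stayed between -1.27 and -0.93 without each library in turn. Macrophage markers moved with Gas5: the summed level of 6 of 6 was 152 to 200 RPKM in DKO_TG, 226 to 417 RPKM in DKO and 158 to 206 RPKM in WT, and 4 of 6 were called lower in DKO_TG than in DKO. Erythrocyte markers summed to 198 to 285 RPKM in DKO_TG, 562 to 2409 RPKM in DKO and 361 to 1657 RPKM in WT. The part of these cells in the Gas5 difference was not tested. The row called higher was Snord37, at 7.69, 9.04 and 10.7 RPKM in DKO_TG and 5.50, 6.11 and 5.97 RPKM in DKO (log2 change 0.59 ± 0.12, adjusted p = 0.0426). Its groups do not overlap, but the call was lost without any one of the 9 libraries (adjusted p 0.0548 to 0.147), and on recovered reads the adjusted p was 0.283.

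None of the other host genes was called between DKO_TG and DKO. Snhg11 (log2 change -0.36, 95% interval -0.61 to -0.12, adjusted p = 0.143) and Snhg18 (-0.32, interval -0.58 to -0.05, adjusted p = 0.226) had lower DKO_TG libraries with no overlap. For Snhg17 the interval was -0.26 to 0.26 and for Snhg15 -0.30 to 0.32. Among snoRNAs the interval was -0.71 to 0.05 for Snord123, -0.91 to 0.29 for Snora31 and -0.17 to 0.23 for Snora41.

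In DKO_TG against WT, 47 of 59 rows were called higher and 0 lower, where 29.1% of all rows tested were called higher and 22.3% lower. The calls comprised 25 of 28 C/D snoRNAs, 11 of 15 H/ACA snoRNAs, 0 of 2 scaRNAs and 11 of 14 host genes. The WT libraries are the same as in the comparison of DKO with WT, so both comparisons share them. The largest changes were those of Snord37 (log2 change 4.26 ± 0.12, at least 27.0-fold), Snord72 (4.22 ± 0.39), Snord123 (4.18 ± 0.17, at least 28.3-fold), Snord35a (4.07 ± 0.18) and Snora31 (3.88 ± 0.27). Snord104 was called here, with 16.6 to 27.2 RPKM in DKO_TG and 2.18 to 4.47 RPKM in WT (log2 change 2.46 ± 0.64, adjusted p = 0.0118). Among the host genes, Gas5 was not called (log2 change -0.17, interval -0.54 to 0.21, 17.6 to 19.4 RPKM in DKO_TG and 19.2 to 23.1 RPKM in WT), nor were Snhg18 (0.06, interval -0.20 to 0.32) and Snhg8 (0.18, interval -0.43 to 0.79). The log2 change of Gas5 turns to 0.35 with TPM scaling (adjusted p = 0.0203), where the median of all rows stands at 0.47, and Snhg18 (0.57, adjusted p = 0.00717) and Snhg8 (0.70, adjusted p = 0.0139) were called there too. Snhg10 was called higher in DKO_TG against WT (log2 change 0.82 ± 0.28, adjusted p = 0.0365). That call was lost without DKO_TG replicate 2 or 3 or WT replicate 2 or 3 (adjusted p 0.1002 to 0.111), and with quantile normalization (0.43, adjusted p = 0.257), no filter (adjusted p = 0.0767), the replicate block (adjusted p = 0.0602) and voom (adjusted p = 0.0551). In DKO_TG against WT, 3 of 4 oocyte markers were called higher, 1 of 4 theca markers higher, 1 of 6 macrophage markers higher and 2 lower, and 2 of 4 endothelial, 2 of 6 granulosa and 3 of 5 erythrocyte markers lower.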

How the data were processed

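The authors deposited 1 table of RPKM values with 54838 rows and a column for each of the 9 libraries. The build was mm10, and DESeq2 1.2.8, HTSeq 0.5.4p5, HISAT2 2.1.0 and cutadapt are named, per the submitters' processing notes. How RPKM was computed, on which annotation, with which counting mode, library kit and strand setting, is not given in the sources used here. The DKO_TG columns carry another spelling of the transgene than their samples do and were assigned by group and number; 0 columns of sample values were left unused. RPKM multiplied by the GENCODE M21 exon length gave whole reads (within 0.01 read or a relative 1e-06) for 97.8% of values above 0 and for all 59 rows. The library size behind the deposited values was 0.793 to 0.920 of the recovered reads in WT and 1.03 to 1.11 in the others, so the values carry a rescaling between libraries.

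Differences were tested with limma 3.58.1 in R 4.3.3 (trended eBayes) on log2(RPKM + 0.5), with all 9 libraries in 1 fit, over the 18889 rows at or above 0.5 RPKM in 3 or more libraries, with Benjamini-Hochberg adjusted p under 0.05. Every adjusted p here comes from this fit unless another is named. Fold changes on this scale understate the change of low rows. The count test planned for a table of counts was replaced because the table holds RPKM, and limma-voom on the recovered reads was an alternative. The rows and gene lists were chosen with earlier results of these data known. Named genes are every host gene and scaRNA, the 8 snoRNAs highest in mean RPKM, the 6 largest called changes per direction at a mean RPKM of at least 1, the 3 rows on each side of the floor, and up to 3 genes per list; other snoRNAs named (those that share a host with these, those not called, Snora41, Snora57 and those listed at 0) were chosen after their values were seen. Hosts are genes of GENCODE M21 on the same strand that contain the small RNA. Ratios of reads carry 95% exact intervals for counting error only, and a group at 0 has a floor of 3 reads. The fit was also run on simulated data with far fewer changed genes than were called here against WT, so that run does not test its use there.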

Additional observations from a re-analysis of the deposited data

How the results depend on the processing

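Alternatives were pseudocounts of 0.1 and 1, 4 other filters, 4 other scalings, the replicate block, a fit of the 6 libraries compared, limma-voom on recovered reads and leaving out each library. Of the rows called against WT, 39 to 44 of 45 (DKO) and 41 to 47 of 47 (DKO_TG) kept their call without each library in turn. With a filter on a mean of 10 reads, which tests fewer rows of the set, 27 were called higher in each of these comparisons. Small RNAs made up 16 of the 27 in DKO against WT and 17 in DKO_TG against WT. The range of rows called higher without each library was 40 to 46 for DKO against WT and 41 to 48 for DKO_TG against WT. The median log2 change in DKO against WT was 2.17 with a filter at an RPKM of 1, 2.66 with the read filter, 2.88 and 1.27 with pseudocounts of 0.1 and 1, and 2.86 with voom. In DKO_TG against WT these medians were 2.36, 2.54, 2.88, 1.56 and 3.17. In DKO_TG against DKO the row called higher (Snord37) was lost, leaving 0, with TPM scaling, the fit of 6 libraries, no filter, a pseudocount of 0.1, the replicate block and voom, and without each library (range 0 to 0). The row called lower (Gas5) was lost, leaving 0, with the fit of 6 libraries and the replicate block, and ranged from 0 to 1 without each library. Direction turned for Snhg8 in DKO against WT (0.43 with TPM scaling, 0.20 with the plain total of reads, 0.079 with quantile normalization, and -0.36 to 0.24 without each library, the highest without DKO replicate 1), for Gas5 in DKO_TG against WT (0.35 with TPM scaling, 0.094 with the plain total) and for Snhg18 in DKO_TG against WT (-0.015 to 0.11 without each library, the lowest without WT replicate 1), all small changes that were not called as deposited. TPM scaling and the plain total move the median of all rows against WT, by 0.49 and 0.28 for DKO and by 0.47 and 0.25 for DKO_TG. The cause was not tested. No pairing by replicate number was seen: deviations of same-numbered libraries correlated at -0.309 to 0.142, and those of different-numbered ones at -0.262 to 0.322. With 3 libraries per group this cannot exclude a pairing. With the number as a block, 43 of 45 rows kept their call in DKO against WT, and the adjusted p was 0.0545 for Gas5 and 0.0748 for Snord37 in DKO_TG against DKO. A small RNA with 0 reads in WT is limited by depth, since 3 reads over the WT group correspond to 0.145 to 0.338 RPKM.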
